A study of Mus musculus with 9 samples.

Results

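The 9 genes examined here anchor the epidermis to its basement membrane in mouse back skin. They were the integrin chain genes Itga6, Itgb4, Itga3 and Itgb1, the plakin genes Dst and Plec, the laminin chain genes Lama3 and Lamb3, and the tetraspanin gene Cd151. They were taken as the rows of the deposited FPKM table with these gene names, joined to the count table by gene identifier. All 9 were found, among 34637 genes of the FPKM table and 55401 genes of the count table. All 9 passed the filter on low counts, and the lowest count of any of them in a library was 469.

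RNA was sequenced from the back skin of male C57BL/6 mice, collected on day 28. The age given by the study, 6 to 8 weeks, is that of the mice divided into groups, so they were older at collection. In both groups the shaved skin had been sensitized on day 1 with 200 µL of 1% DNCB, a small reactive molecule that raises contact allergy, and challenged from day 4 to day 21 with 100 µL of 0.5% DNCB. The FJDHF group (5 libraries) was fed FJDHF, the herbal Fangji Dihuang formulation, every day after day 7. Of its medium-dose and high-dose groups, the study names the medium-dose group as the one sequenced. The Model group (4 libraries) received water instead. Skin without DNCB was not analysed here, so the comparison was between treated and untreated dermatitis. The column codes MR1, MR3, MR3_4, MR4_5 and MR5 were taken as FJDHF, and MXL1, MXL12, MXL3_4 and MXL_3 as Model, because the groups have 5 and 4 mice and MX abbreviates the Chinese word meaning model. Every direction between the groups rests on that reading. Codes with more than 1 number could mark pooled RNA, and each was counted as 1 library.

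Hemidesmosomes are the rivets by which basal keratinocytes hold to the basement membrane. The integrin formed by the α6 chain (Itga6) and the β4 chain (Itgb4) spans the cell membrane and binds laminin outside the cell. Inside the cell, plectin (Plec) and the epithelial form of dystonin (Dst) tie the integrin to keratin filaments. The laminin concerned contains the α3 and β3 chains (Lama3, Lamb3). The integrin of α3 (Itga3) and β1 (Itgb1) binds the same laminin at focal contacts, and Cd151 associates with both integrins. Loss of several of these genes in people causes skin that blisters at the basement membrane.

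The levels of several of these genes differed between libraries along with the base composition of their transcripts, so stretches of coding sequence are shown for the members with the most G and C (Plec and Itgb4) and for Itga6 and Itgb1, which had the least. Each is the 90-base window inside 1 coding exon whose G and C content was nearest to that of the gene's longest transcript, from the GENCODE M21 transcripts on GRCm38, written 5′ to 3′ on the coding strand with G and C in capitals. The Plec window lies in exon 1 of 33 at chr15:76206049-76206138 on the minus strand and holds 55 G or C bases. The Itgb4 window lies in exon 5 of 40 at chr11:115979675-115979764 on the plus strand and holds 54. The Itga6 window is in exon 4 of 26 at chr2:71819999-71820088 on the plus strand and holds 44. The Itgb1 window is in exon 4 of 16 at chr8:128710261-128710350 on the plus strand and holds 40.
Plec: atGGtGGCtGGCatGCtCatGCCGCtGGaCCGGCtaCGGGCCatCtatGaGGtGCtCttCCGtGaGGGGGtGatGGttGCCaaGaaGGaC
Itgb4: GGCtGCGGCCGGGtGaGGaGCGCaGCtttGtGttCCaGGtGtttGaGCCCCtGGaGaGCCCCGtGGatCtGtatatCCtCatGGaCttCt
Itga6: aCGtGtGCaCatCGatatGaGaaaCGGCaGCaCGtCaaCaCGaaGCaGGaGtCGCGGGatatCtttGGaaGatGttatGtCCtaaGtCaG
Itgb1: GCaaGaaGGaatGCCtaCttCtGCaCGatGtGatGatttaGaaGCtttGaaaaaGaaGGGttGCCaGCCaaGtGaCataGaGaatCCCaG

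Over whole transcripts, G and C made up 61.3% of Plec, 60.0% of Itgb4, 57.9% of Itga3, 55.6% of Lamb3, 54.4% of Cd151, 51.7% of Lama3, 49.5% of Dst, 48.9% of Itga6 and 44.8% of Itgb1.

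Total counts were 74648669 to 79474215 per library. MXL1 and MXL12, both of the Model group, were the highest or lowest library for several of the genes. Results that rest on MXL1 are also given without it, and some are given without MXL12. Ranges over leaving out each single library are given at the end. The quasi-likelihood test of edgeR was run on the counts over all 20817 genes that passed the filter, with Benjamini-Hochberg adjustment. At an adjusted p under 0.05, 0% of the tested genes were called, and 1.57% had an unadjusted p under 0.05. DESeq2 called 12 genes, none of them a member. Levels are given as CPM, the count of a gene scaled to library size with TMM factors, and FPKM values, which are also scaled by gene length, are used where genes are compared with each other. The labels number the samples by mouse, but the columns could not be tied to those numbers, and p values measure the spread between these libraries.

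No difference between the groups passed the test for any of the 9 genes. At an adjusted p under 0.05 0 of 9 were called by edgeR and 0 by DESeq2, 0 had an unadjusted p under 0.05 in edgeR, and in 0 of 9 did the CPM ranges of the groups separate, against 0.514% of all tested genes. Estimated differences were small, 5 members being higher and 4 lower in FJDHF, with log2 fold changes from -0.26 to 0.18. Their median was 0.02, and that of all tested genes was -0.03. The exact permutation test on log2(CPM + 0.5), two-sided over all 126 splits into 5 and 4 libraries, gave p from 0.524 to 0.841, where the smallest p the design allows is 0.00794. The intervals were wide for some genes, and in whole skin fewer cells of a type and less RNA per cell cannot be told apart.

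**Figure D1:**
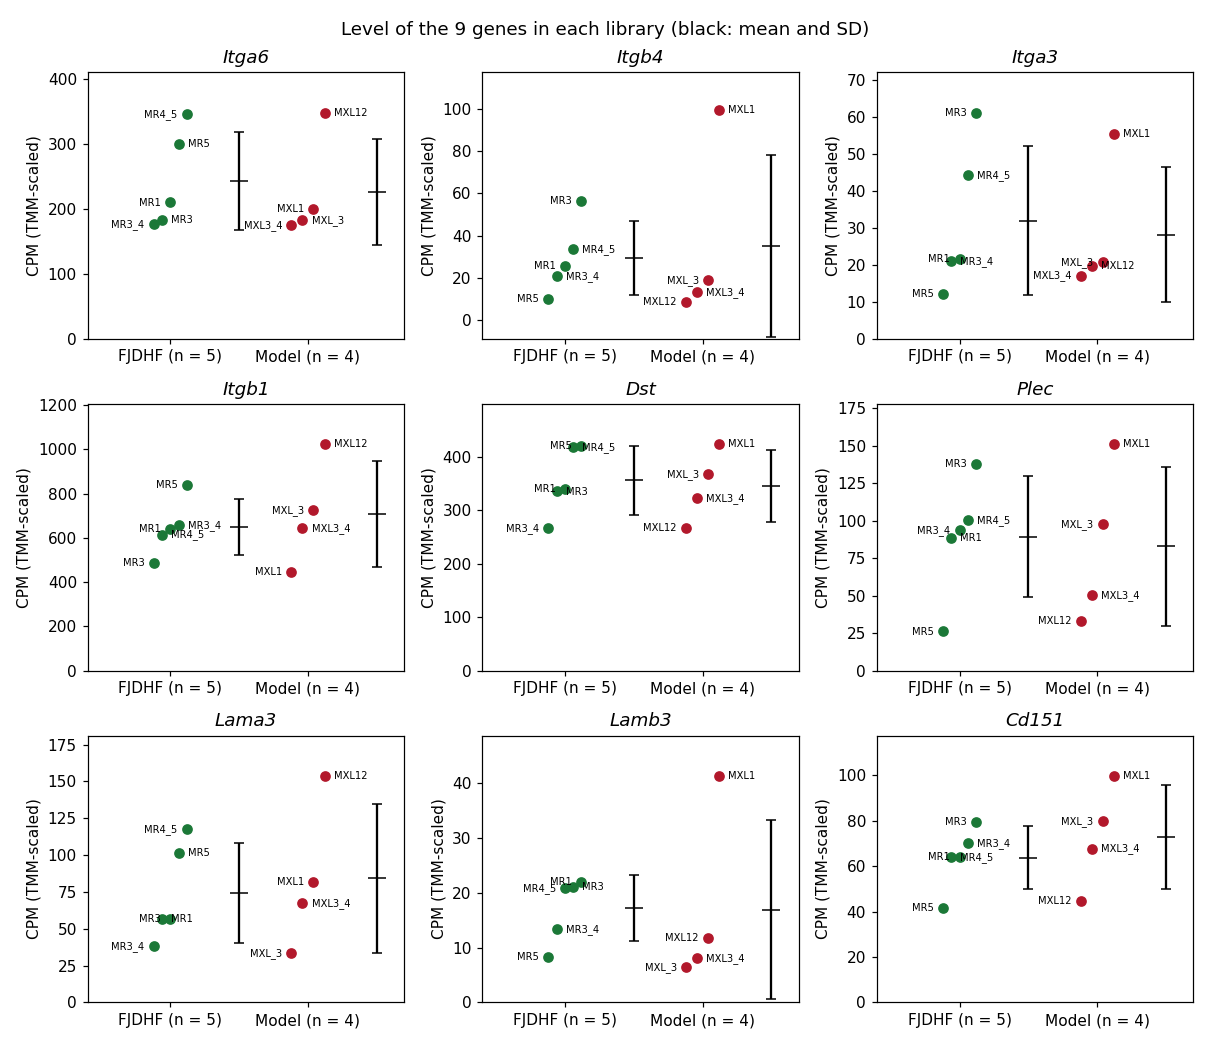
CPM of each of the 9 genes in each library (points, with the library codes), FJDHF in green (n = 5) and Model in red (n = 4), with the mean and SD of each group in black. The groups overlap for every gene, and MXL1 or MXL12 of the Model group is the highest library for all genes but Itga3.

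**Figure D2:**
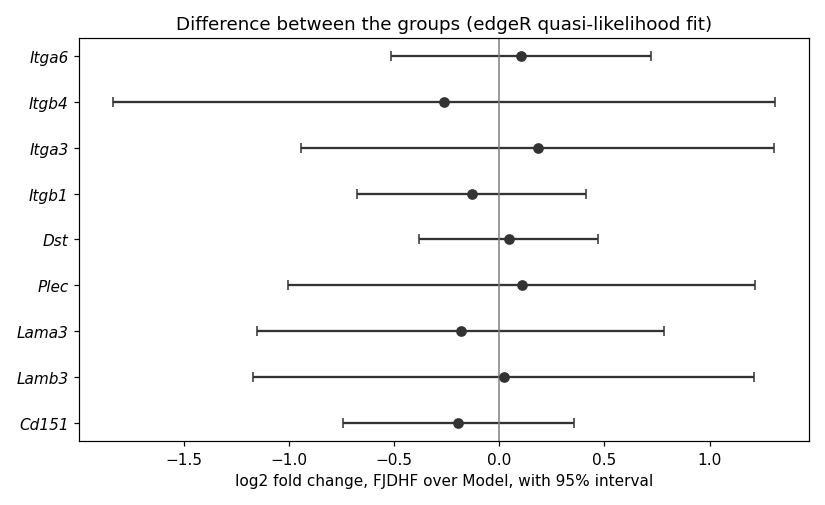
Log2 fold change of each gene, FJDHF over Model, from the edgeR fit, with its 95% interval (bars). Every interval includes 0, and that of Itgb4 is the widest, from -1.84 to 1.31.

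The α6 and β4 chains of the hemidesmosomal integrin showed unlike patterns. Itga6 (chr2:71745616-71858416) was at 210 CPM in MR1, 183 in MR3, 177 in MR3_4, 346 in MR4_5 and 300.0 in MR5, and at 199 in MXL1, 348 in MXL12, 175 in MXL3_4 and 182 in MXL_3. It was thus high in MR4_5, MR5 and MXL12 and similar in the others, so that the groups overlapped. Its mean was 243 ± 75.7 CPM (SD, n = 5) in FJDHF and 226 ± 81.9 CPM (SD, n = 4) in Model. The log2 fold change was 0.10 (SE 0.28), and 0.39 without MXL12.

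Itgb4 (chr11:115974709-116008412) was at 25.6 CPM in MR1, 56.4 in MR3, 20.9 in MR3_4, 33.7 in MR4_5 and 9.94 in MR5, and at 99.5 in MXL1, 8.59 in MXL12, 13.4 in MXL3_4 and 19.2 in MXL_3. The highest library, MXL1, and the lowest, MXL12, belonged to the same group and differed by 11.6-fold, the widest range of the 9 genes. The group means were 29.3 ± 17.4 CPM (SD, n = 5) in FJDHF and 35.2 ± 43.1 CPM (SD, n = 4) in Model. The log2 fold change was -0.26 (SE 0.71), and the difference of the mean log2 levels had the opposite sign, 0.21. Without MXL1 the log2 fold change was 1.09 (edgeR adjusted p = 0.983). An antisense gene, B230344G16Rik, overlaps 537 bases of Itgb4 exons, and while the study's methods describe strand-specific libraries, whether the counting used strand is not given in the sources used here.

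Of the second laminin-binding pair, Itga3 (chr11:95044474-95076797) was at 21.6 CPM in MR1, 61.3 in MR3, 21.0 in MR3_4, 44.3 in MR4_5 and 12.04 in MR5, and at 55.4 in MXL1, 19.7 in MXL12, 17.1 in MXL3_4 and 20.8 in MXL_3. MR3, MXL1 and MR4_5 stood above the other 6 libraries. The means were 32.0 ± 20.2 CPM (SD, n = 5) in FJDHF and 28.3 ± 18.2 CPM (SD, n = 4) in Model, and the log2 fold change was 0.18 (SE 0.51). It was 0.74 without MXL1 and fell below 0, to -0.22, without MR3.

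Itgb1 (chr8:128685654-128733200), whose β1 chain also serves fibroblasts and other cells with many α chains, ran the other way. Its CPM was 640 in MR1, 488 in MR3, 660 in MR3_4, 615 in MR4_5 and 838 in MR5, and 447 in MXL1, 1023 in MXL12, 643 in MXL3_4 and 727 in MXL_3. The lowest libraries, MXL1 and MR3, were those with the most Itgb4. The means were 648 ± 126 CPM (SD, n = 5) in FJDHF and 710 ± 239 CPM (SD, n = 4) in Model. The log2 fold change was -0.13 (SE 0.25), and 0.10 without MXL12.

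Of the plakins, Dst (chr1:33908225-34308652) was the steadiest of the 9 genes. It was at 340 CPM in MR1, 335 in MR3, 267 in MR3_4, 417 in MR4_5 and 419 in MR5, and at 423 in MXL1, 266 in MXL12, 323 in MXL3_4 and 368 in MXL_3. The highest library was 1.59-fold above the lowest, and the log2 fold change was 0.04 (SE 0.19, 95% interval -0.38 to 0.47). Dst is also used in nerve and muscle through other isoforms, which counts per gene do not separate. Antisense genes overlap 1493 bases of its exons.

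Plec (chr15:76170974-76232574) was at 88.4 CPM in MR1, 138 in MR3, 93.9 in MR3_4, 100.5 in MR4_5 and 26.1 in MR5, and at 151 in MXL1, 32.9 in MXL12, 50.3 in MXL3_4 and 97.8 in MXL_3. MR5 and MXL12, from different groups, were the 2 lowest libraries. The means were 89.3 ± 40.2 CPM (SD, n = 5) in FJDHF and 83.0 ± 52.9 CPM (SD, n = 4) in Model, with a log2 fold change of 0.11 (SE 0.50). Plec shares 205 exon bases with Parp10 on the same strand.

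Of the laminin chains, Lama3 (chr18:12333819-12583013) was at 56.6 CPM in MR1 and in MR3, 38.6 in MR3_4, 118 in MR4_5 and 101 in MR5, and at 82.1 in MXL1, 154 in MXL12, 67.6 in MXL3_4 and 33.8 in MXL_3. It was highest in the same 3 libraries as Itga6. The means were 74.2 ± 33.7 CPM (SD, n = 5) in FJDHF and 84.2 ± 50.4 CPM (SD, n = 4) in Model. The log2 fold change was -0.18 (SE 0.44), and 0.28 without MXL12. Lama3 shares 197 exon bases with the antisense gene Gm29200.

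Lamb3 (chr1:193207699-193343878) was at 21.9 CPM in MR1, 21.1 in MR3, 13.4 in MR3_4, 20.9 in MR4_5 and 8.36 in MR5, and at 41.2 in MXL1, 11.8 in MXL12, 8.14 in MXL3_4 and 6.49 in MXL_3. MXL1 was the highest library and the other 3 Model libraries were among the 4 lowest. The means were 17.2 ± 6.00 CPM (SD, n = 5) in FJDHF and 16.9 ± 16.4 CPM (SD, n = 4) in Model, with a log2 fold change of 0.02 (SE 0.54). Without MXL1 it was 0.96 (edgeR adjusted p = 0.983), and Lamb3 was then the 1 member with an unadjusted p under 0.05, against 3.45% of all genes tested in that fit.

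Cd151 (chr7:141467392-141471473) was at 63.9 CPM in MR1, 79.4 in MR3, 70.0 in MR3_4, 63.8 in MR4_5 and 41.7 in MR5, and at 99.6 in MXL1, 44.8 in MXL12, 67.7 in MXL3_4 and 79.7 in MXL_3. MR5 and MXL12 were again the lowest libraries. The means were 63.8 ± 13.9 CPM (SD, n = 5) in FJDHF and 72.9 ± 22.9 CPM (SD, n = 4) in Model, with a log2 fold change of -0.19 (SE 0.25). Cd151 shares 193 exon bases with the antisense gene Gm10575.

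Per length, Itgb1 was by far the most abundant of the 9, with a median of 147 FPKM over the 9 libraries. Cd151 had a median of 23.0 FPKM, Itga6 21.2, Dst 7.91, Lama3 5.86, Plec 4.72, Itga3 3.35, Itgb4 2.72 and Lamb3 1.85. Itgb1 was above Cd151, and Itga6 above Dst, in 9 of 9 libraries. Itga3 was above Itgb4, and Itgb4 above Lamb3, in 8 of 9. The order of Cd151 and Itga6 (6 of 9), Dst and Lama3 (7 of 9), and Lama3 and Plec (5 of 9) varied between libraries. Plec was above Itga3 in only 3 of 9 libraries although its median was higher, so these neighbours were not separated. For each of the 9 genes the FPKM value used a length above that of the longest transcript, which lowers FPKM by unequal amounts. Estimated from counts, FPKM and total counts, the lengths were 43799 against 23279 bases for Dst and 9620 against 4310 for Itga6, but 11306 against 10548 for Lama3. These estimates depend on the depth assumed, and over genes their median was 1.05 times the merged exons of the gene. Merged exons came to 41155 bases for Dst, 9025 for Itga6 and 10745 for Lama3. The order of the genes and the size of the ratios below depend on these lengths.

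The ratio between partner genes within a library was compared next, on FPKM values. Itga6 exceeded Itgb4 in every library, by 6.30 in MR1, 2.49 in MR3, 6.48 in MR3_4, 7.88 in MR4_5 and 23.3 in MR5, and by 1.53 in MXL1, 31.1 in MXL12, 10 in MXL3_4 and 7.30 in MXL_3. The ratio thus spanned 20.3-fold, and both its lowest and its highest value were in the Model group. Itga3 was at 0.0103 to 0.0898 of Itgb1 in FJDHF and at 0.0137 to 0.0887 in Model. The Lama3 to Lamb3 ratio was 1.59 to 7.48 in FJDHF and 1.22 to 8.02 in Model. The Dst to Plec ratio was 1.06 to 7.00 in FJDHF and 1.22 to 3.51 in Model. Of the 6 ratios compared between the groups, none passed the two-sided exact permutation test, the smallest p being 0.50 for Cd151 to Itga3 (adjusted p = 0.976 over the 6).

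**Figure D3:**
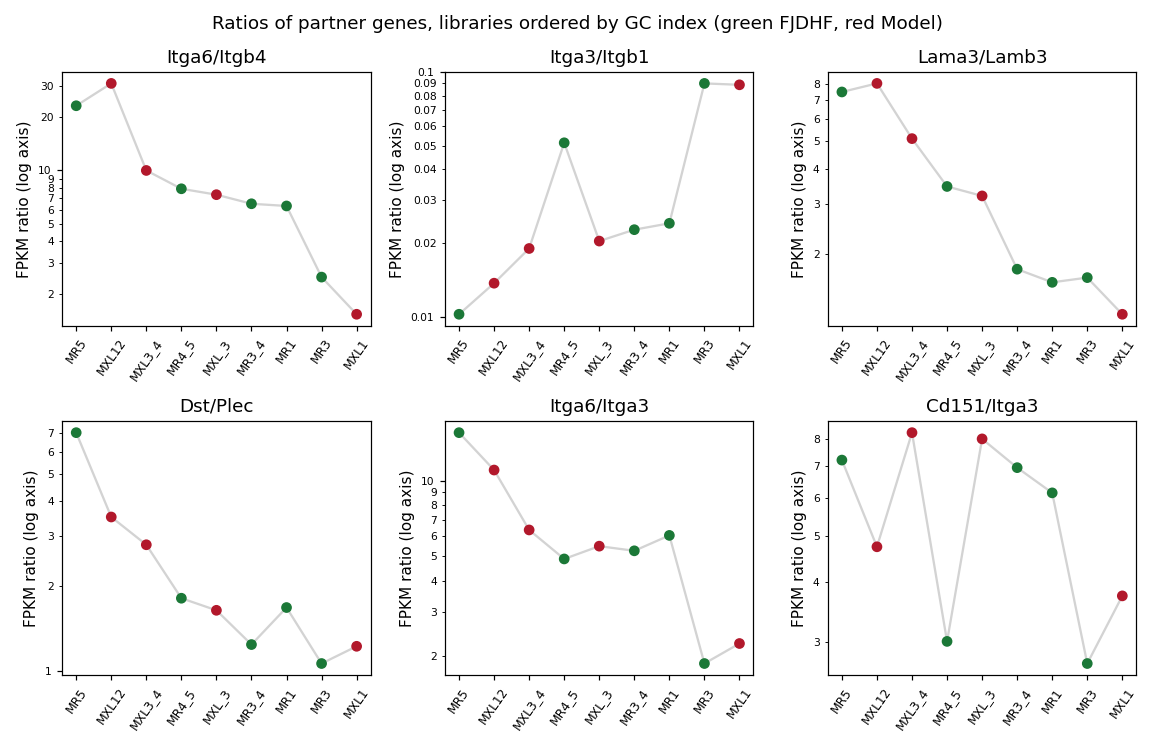
FPKM ratio of 6 pairs of partner genes (log axis) in each library, ordered from the lowest to the highest GC index, with FJDHF in green and Model in red. The Itga6 to Itgb4 ratio falls from 31.1 and 23.3 in MXL12 and MR5 to 1.53 in MXL1, and the groups are mixed along each curve.

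The libraries differed in how strongly GC-rich transcripts were represented. A GC index was computed for each library as the median log2 deviation of the tested genes with the most G and C in their transcripts (above 54.9%) minus that of the genes with the least (below 43.6%), the outer 2 of 5 equal bins, with the 9 members left out. It was 0.22 in MR1, 0.60 in MR3, 0.17 in MR3_4, 0.01 in MR4_5 and -0.77 in MR5, and 0.73 in MXL1, -0.75 in MXL12, -0.38 in MXL3_4 and 0.14 in MXL_3. Its mean was 0.05 ± 0.50 (SD, n = 5) in FJDHF and -0.06 ± 0.64 (SD, n = 4) in Model, and the two-sided exact permutation test gave p = 0.762. Both groups therefore held libraries at either end.

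Plec followed the index most closely (Pearson r = 0.97, Spearman rho = 0.83 over 9 libraries, exact permutation p = 0.000174 and 0.00827, adjusted p = 0.00156 and 0.0248 over the 9 genes). Itgb4 (r = 0.93, rho = 0.88, adjusted exact p = 0.00212 and 0.0203), Cd151 (r = 0.91, rho = 0.80, adjusted exact p = 0.00405 and 0.0249) and Itga3 (r = 0.79, rho = 0.87, adjusted exact p = 0.0235 and 0.0203) rose with it too. Itgb1, with the lowest G and C content, fell as the index rose (r = -0.89, rho = -0.80, adjusted exact p = 0.00460 and 0.0249). Lamb3 passed by rank only (r = 0.69, rho = 0.73, adjusted exact p = 0.0681 and 0.0467).

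Itga6 (r = -0.60, adjusted exact p = 0.117), Lama3 (r = -0.52, adjusted exact p = 0.172) and Dst (r = 0.21, adjusted exact p = 0.576) did not pass. Without MR5 and MXL12, the 2 libraries farthest from the median of the index, r was 0.95 for Plec, 0.89 for Itgb4, 0.74 for Cd151, 0.75 for Itga3 and -0.76 for Itgb1, but -0.10 for Itga6 and -0.01 for Lama3. After the group means were subtracted r was 0.97, 0.93, 0.97, 0.79 and -0.89 for the first 5. Of all genes used for the index, 31.3% had an r of at least 0.7 in size, against 5 of 9 members, so many genes of the skin shared the pattern. An r of at least 0.7 was found for 17.1% of genes and 4 members, and of -0.7 or lower for 14.2% and 1 member. These shares cover genes of every G and C content, and the members were not compared with genes of like content.

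**Figure D4:**
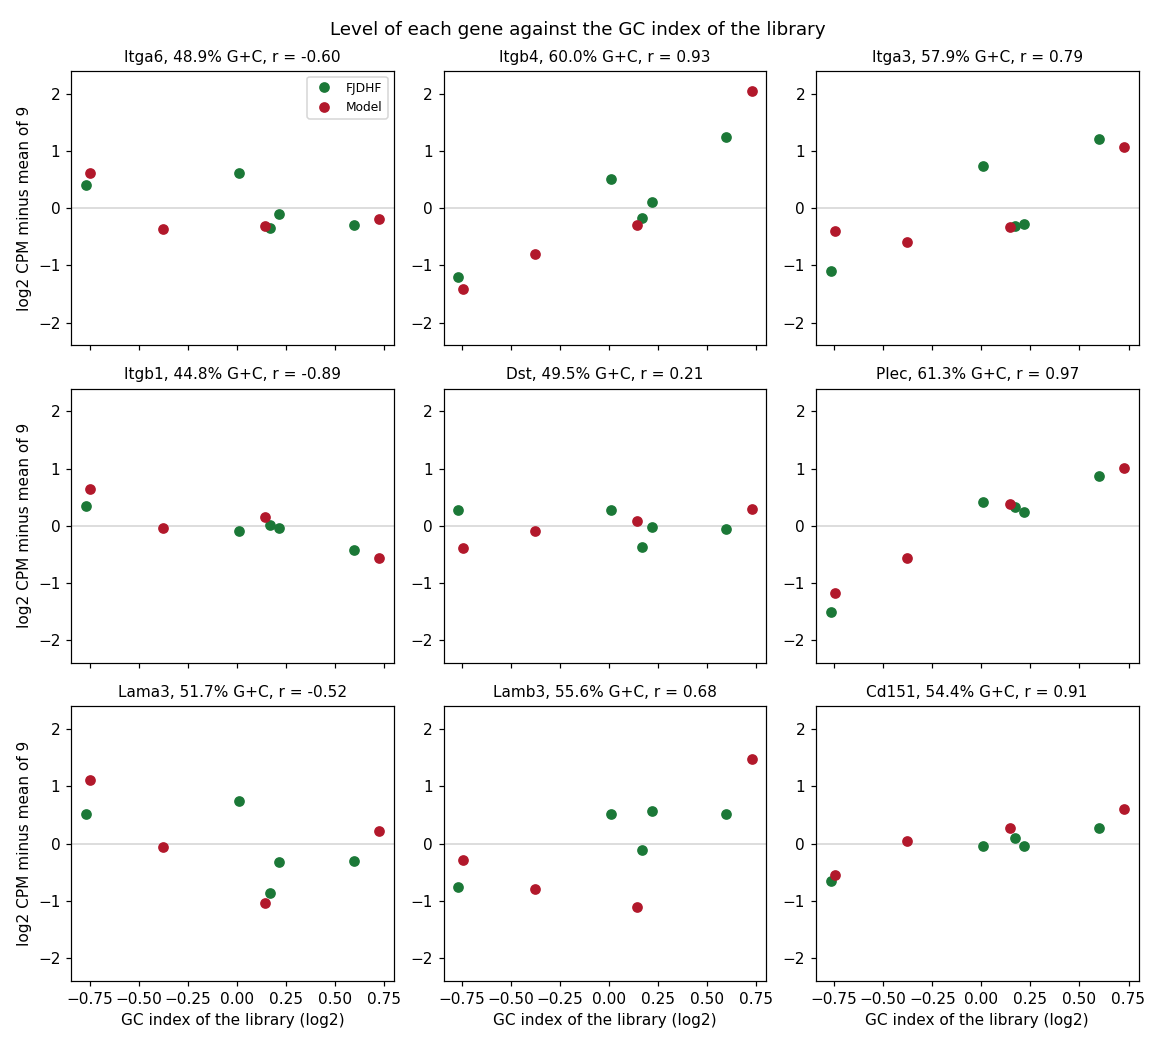
Log2 CPM of each gene, as the difference from its mean over the 9 libraries, against the GC index of the library, with FJDHF in green and Model in red. Plec, Itgb4, Itga3 and Cd151 climb from left to right, Itgb1 descends, and Dst is flat.

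When a curve of the level against transcript G and C content was subtracted for each library, the SD of log2 levels over the 9 libraries went from 0.88 to 0.29 for Plec, from 1.13 to 0.58 for Itgb4, from 0.80 to 0.51 for Itga3 and from 0.39 to 0.20 for Cd151. It changed little for Itga6 (0.42 to 0.39), Dst (0.26 to 0.29) and Lama3 (0.72 to 0.76). The range of the Itga6 to Itgb4 ratio narrowed from 20.3-fold to 5.10-fold, and that of Dst to Plec from 6.61-fold to 2.51-fold. With this curve as an offset in edgeR, 0 of 9 members were called. The log2 fold change was then -0.02 for Itgb4 and -0.24 for Cd151. On log2 levels with the curve subtracted, the two-sided exact permutation p of Cd151 was 0.0873, against 0.524 before. For the other members that p was 0.635 to 0.944 after subtraction. Whether G and C content itself set these levels was not tested.

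Co-variation over the libraries was measured for the 6 partner pairs on log2(CPM + 0.5). No co-variation was found for the chains of the hemidesmosomal integrin (Itga6 with Itgb4, r = -0.36, rho = -0.13, exact permutation p = 0.336 and 0.744, adjusted p = 0.673 and 0.931 over the 6 pairs). Itga3 and Itgb1 varied in opposite directions (r = -0.79, rho = -0.85, exact permutation p = 0.0108 and 0.00607, adjusted p = 0.0646 and 0.0364), which passed by rank only. That r was -0.47 without MR3 and MXL1, and -0.30 after subtraction of the GC curve. Cd151 with Itga3 gave r = 0.68 (adjusted exact p = 0.135), Lama3 with Lamb3 0.19 and Dst with Plec 0.19 (adjusted exact p = 0.698 for both).

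Over all 36 pairs of the 9 genes, 12 had an adjusted exact p under 0.05 by Pearson r, 8 positive and 4 negative, and all 4 negative pairs included Itgb1. By rank 6 of these 12 pairs also passed and 6 did not. Those that did were Itgb4 with Itga3, Itgb4 with Plec, Itga3 with Plec, and Itgb1 with Itgb4, Itga3 and Plec. Itga3 with Itgb1 thus passed by Pearson r when adjusted over the 36 pairs (adjusted exact p = 0.0343), but not over the 6 partner pairs (0.0646). Without the 2 libraries farthest from the median, r of the positive pairs was 0.62 to 0.92 and that of the negative pairs -0.84 to -0.47. The positive pairs joined Itgb4 with Itga3 (r = 0.90), Plec (r = 0.90), Lamb3 (r = 0.84) and Cd151 (r = 0.83), Plec with Cd151 (r = 0.91) and with Itga3 (r = 0.81), and Itga3 with Lamb3 (r = 0.79). The remaining positive pair was Itga6 with Lama3 (r = 0.86, rho = 0.75, adjusted exact p = 0.0139 and 0.0834), whose r was 0.85 after subtraction of the GC curve and 0.69 without the 2 farthest libraries. After that subtraction 0 of 36 pairs had an adjusted p under 0.05, and the lowest was 0.139, for Itga6 with Lama3 and for Itgb4 with Itgb1.

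**Figure D5:**
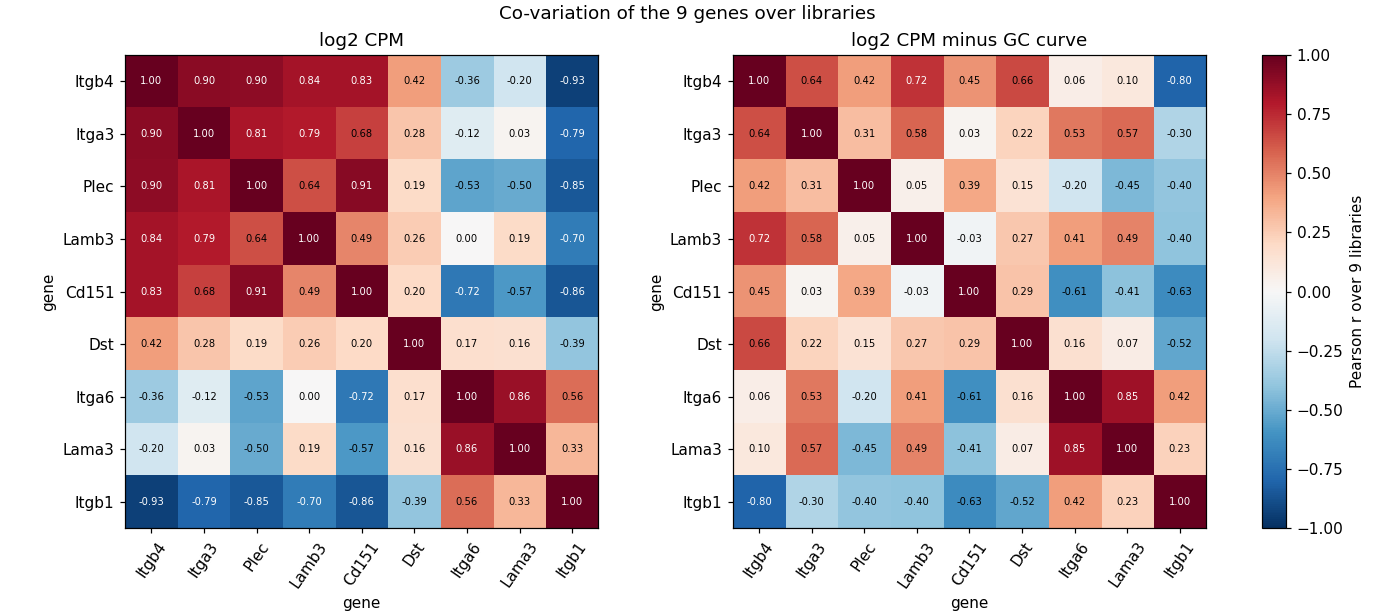
Pearson r over the 9 libraries for each pair of genes, from log2 CPM (left) and after the GC curve of each library was subtracted (right), from -1 in blue to 1 in red. The block of Itgb4, Itga3, Plec, Lamb3 and Cd151 and its opposition to Itgb1 are paler on the right, while Itga6 with Lama3 goes only from 0.86 to 0.85.

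Krt14, a keratin of basal keratinocytes to which the plakins attach, was used as a reference gene. It was at 908 CPM in MR1, 1273 in MR3, 506 in MR3_4, 1592 in MR4_5 and 203 in MR5, and at 2323 in MXL1, 208 in MXL12, 347 in MXL3_4 and 252 in MXL_3. Over the 9 libraries, as a description, log2 levels of Itgb4 (r = 0.93), Lamb3 (r = 0.92), Itga3 (r = 0.88) and Plec (r = 0.81) went with those of Krt14. For Lama3 (r = -0.0028) and Itga6 (r = -0.16) r was near 0, and Itgb1 ran against Krt14 (r = -0.87). Krt14 is itself rich in G and C (57.2%), and its log2 level had an r of 0.81 with the GC index. The part of base composition in the r values with Krt14 was not tested. Relative to Krt14, the mean log2 level of each member was lower in FJDHF, by 0.31 for Lamb3 to 0.83 for Cd151, and the exact permutation p was 0.270 to 0.603, so none of the 9 passed. Without MXL1 the differences were -1.44 for Cd151 (exact permutation p = 0.0536), -1.74 for Itgb1, -1.50 for Lama3, -1.38 for Itga6, -1.30 for Dst, -0.94 for Itga3 and -0.92 for Plec. Without MXL12 they were -0.18 for Itgb1, -0.032 for Lama3, 0.053 for Itga6 and -0.28 for Itga3, and none of the 9 passed in any of these fits. Since every member was divided by the same gene, these 9 values share its spread.

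The 4 basal keratinocyte markers summed to 1495 to 4904 CPM in FJDHF and 1054 to 6274 CPM in Model, and all 4 were above the floor of 3 counts in every library. Their mean log2 level had r = 0.67 with the GC index. The 6 markers of differentiated keratinocytes summed to 6908 to 14405 CPM in FJDHF and 2731 to 7894 CPM in Model. Their mean log2 level was higher in FJDHF by 1.04 (exact permutation p = 0.0159, adjusted p = 0.175 over 11 marker lists). The other 9 lists, of hair follicle, fibroblast, endothelial, skeletal muscle, Schwann, adipocyte, neutrophil, macrophage and T cell markers, had adjusted exact p values of 0.349 to 0.944. Skeletal muscle markers summed to 860 to 7912 CPM in FJDHF and 364 to 11325 CPM in Model, and the part of that muscle in the levels of Plec and Dst, which muscle also expresses, was not tested beyond the fit with a muscle score, in which 0 members were called.

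Among 45 further genes of the same junctions and membrane, 19 were higher and 26 lower in FJDHF, 0 were called at an adjusted p under 0.05 by edgeR or by DESeq2 and 0 had an unadjusted p under 0.05. Their median log2 fold change was -0.02. Of all tested genes, 9186 were higher and 11631 lower. By role, 4 of 5 other hemidesmosome and anchoring genes, 4 of 7 integrin chains, 3 of 4 other plakins and both basal keratins were higher. Of the basement membrane sheet 7 of 10 genes were lower, as were 6 of 7 integrin activators and linkers and 2 of 3 tetraspanins. None passed the test, and the median log2 fold changes of these roles were small, from -0.09 to 0.21.

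The smallest p belonged to Col7a1, which encodes the collagen of the anchoring fibrils beneath the hemidesmosome. Its level was 83.5 CPM in MR1, 50.7 in MR3, 49.7 in MR3_4, 78.0 in MR4_5 and 25.2 in MR5, and 66.3 in MXL1, 13.8 in MXL12, 12.8 in MXL3_4 and 20.9 in MXL_3. Apart from MXL1, the Model libraries lay below all FJDHF libraries. The means were 57.4 ± 23.7 CPM (SD, n = 5) in FJDHF and 28.5 ± 25.5 CPM (SD, n = 4) in Model, with a log2 fold change of 1.01 (SE 0.53, edgeR adjusted p = 1.00, two-sided exact permutation p = 0.0873). Without MXL1 the log2 fold change was 1.86 (edgeR adjusted p = 0.775), and Col7a1 had an r of 0.70 with the GC index.

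The next 4 were Fras1 with a log2 fold change of 0.35 (SE 0.24), Lama4 with -0.34 (SE 0.28), Itga2 with -0.37 (SE 0.32) and Itga9 with -0.27 (SE 0.23). Without MXL1, 6 of the 45 had an unadjusted edgeR p under 0.05, against the same 3.45% of all genes, and 0 had an adjusted p under 0.05. That count was 2 without MXL_3, 1 without MR5 and 0 when any other single library was left out. The count of 6 thus rests on leaving out MXL1. The 6 genes were Col7a1, Fras1, Frem2, Ppl and Krt14, which were higher in FJDHF without MXL1, and Lama4, which was lower. Frem2 and Ppl were named after their values were seen.

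The mean of the 9 scaled members over the 9 libraries was compared with 10457 other genes with a mean of at least 10 CPM. Most like it in log2 level were Sorcs2 (r = 0.92), Hdac6 (r = 0.91), Setd1b (r = 0.90), Traf3ip2 (r = 0.90) and Dclre1a (r = 0.90). These are the highest r among 10457 genes over only 9 libraries, and whether they exceed chance was not tested. The mean also joins members that varied in opposite directions, such as Itgb4 and Itgb1 (r = -0.93). Total counts were similar between the libraries, but the GC index differed as described above. For the same 5 genes r with the GC index was 0.54, 0.64, 0.83, 0.67 and 0.39.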

How the data were processed

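RNA of back skin was sequenced from both ends by the authors, and the submitters' processing notes name HISAT, StringTie, DESeq2 and the mm10 build with no version or role. The authors deposited whole-number read counts per gene without normalization (55401 genes) and FPKM values (34637 genes), which they scaled for gene length and depth. The FPKM values used 1 fixed length per gene. Another 9 columns of that second table hold the counts again and were left out. A gene at 3 counts or fewer was taken as at the floor, and this covers counting error only.

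The main test was the quasi-likelihood test of edgeR 4.0.16 under R 4.3.3, without covariates, after TMM scaling and filterByExpr. Standard errors and intervals came from the F statistic. Exact permutation tests were run in Python 3.11.15, on log2(CPM + 0.5) or log2 ratios. G and C content was that of the longest GENCODE M21 transcript, and a GC curve is the median deviation of a library in 20 bins of it. Alternatives were DESeq2 1.42.0, its size factors, limma 3.58.1 on log2(FPKM + 1), a pseudocount of 0.1, other filters, a muscle score, a replicate block and each library left out, with the GC curve added after the data were seen. In simulated data, edgeR recovered 57.5% of 200 genes changed 4-fold, with 4.96% false among 121 calls. The members and lists were chosen with earlier results of these data known. All 9 members were named, with 5 of 45 further genes, those of smallest p, and the 5 outside the list most like the members' mean. A gene of the further list is not reported here. Krt14, a reference gene, and Frem2 and Ppl, after their values were seen, were named too.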

Additional observations from a re-analysis of the deposited data

Results flagged for a closer look

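By Dixon's criterion, the gap of the highest or lowest library to its nearest neighbour was compared with the whole range of its group. This was done for the 9 levels as log2(CPM + 0.5), the 6 log2 ratios, the GC index and the total count. Of 34 such groups 3 passed the critical value, where chance alone gives about 1.7. Itga3 in MXL1, at 55.4 CPM against 17.1 to 20.8 CPM in the other 3 Model libraries, had a gap of 0.837 of the range of log2 levels. Plec in MR5, at 26.1 CPM against 88.4 to 138 CPM in the other 4 FJDHF libraries, had a gap of 0.733, also on log2 levels rather than CPM. The Dst to Plec ratio of the same library, 7.00 against 1.06 to 1.81, had a gap of 0.717 on the log2 scale. MXL1 had the highest GC index, 0.73, and MR5 the lowest, -0.77, and the part of base composition in these gaps was not tested.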

How the results depend on the processing

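No count of called members, ratios or further genes changed from 0 under any alternative run, and the median log2 fold change of the members stayed between -0.18 and 0.16. No member was called, so signs that turned belong to differences within the spread. Without single libraries, log2 fold changes ranged from -0.056 to 0.39 for Itga6, -0.67 to 1.09 for Itgb4, -0.22 to 0.74 for Itga3, -0.30 to 0.10 for Itgb1, -0.062 to 0.16 for Dst, -0.16 to 0.57 for Plec, -0.45 to 0.28 for Lama3, -0.25 to 0.96 for Lamb3 and -0.37 to -0.0068 for Cd151. MXL1 gave the upper end for Itgb4, Itga3, Dst, Plec, Lamb3 and Cd151. Differences of mean log2 levels ranged from -0.029 to 0.34 for Itga6, -0.23 to 0.93 for Itgb4, -0.17 to 0.50 for Itga3, -0.29 to 0.11 for Itgb1, -0.073 to 0.15 for Dst, -0.20 to 0.55 for Plec, -0.47 to 0.25 for Lama3, 0.020 to 0.88 for Lamb3 (exact permutation p = 0.0536 without MXL1) and -0.38 to 0.0018 for Cd151. Log2 ratios differed by -0.88 to 0.57 for Itga6/Itgb4, -0.18 to 0.80 for Itga3/Itgb1, -0.58 to 0.13 for Dst/Plec and -0.44 to 0.37 for Itga6/Itga3, and levels relative to Krt14 by -1.38 to 0.053 for Itga6 and -0.53 to 0.029 for Lamb3. Other turned signs were Itgb4 at 0.12 with limma, Lama3 at 0.016 with the muscle score, Lamb3 at -0.0029 with DESeq2 size factors and -0.0049 with DESeq2, and, with the GC curve subtracted, the Itga6/Itga3 ratio difference at 0.082 and the correlations of Itga6 with Itgb4 at 0.063 and with Itga3 at 0.53. The Dst with Plec correlation was -0.068 without the 2 farthest libraries. The cause was not tested. Correlations of deviations between same-numbered libraries were 0.12, 0.08 and -0.05, so the numbers were not taken to pair the libraries. With a replicate block over those 6 libraries, Itgb4 was at 0.14, Dst at -0.24 (-0.24 also for the 6 unblocked) and Lamb3 at 0.52, with 0 members called. At an unadjusted p under 0.05, DESeq2 had 651 genes, no filter 905, and the fits without MXL1 and MR4_5 734 and 217, against 326. The planned comparison of transcript lengths implied by counts and FPKM was not run, since 1 length per gene was used in every library. The biological coefficient of variation was 0.477, and the interval of Itgb4 spans -1.84 to 1.31, so changes of that size in either direction are not excluded for it.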
